A study of Mus musculus with 9 samples.

Results

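The mitochondrial ribosomal protein genes encode the protein parts of the ribosome inside mitochondria. They were taken as every probe whose gene symbol in the deposited array table begins with Mrpl or Mrps followed by a number. The rule found 105 probes for 72 genes, 44 named for the large subunit (Mrpl) and 28 for the small subunit (Mrps), among 25697 probes for 17914 symbols in all. It used names only and no measured value.

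The genes were measured in primary osteoblasts (bone-forming cells) from newborn mouse calvaria, the roof of the skull, on 9 Illumina bead arrays of total RNA. All cells, controls included, carried a lentivirus that expresses RUNX2, the master transcription factor of osteoblasts, when doxycycline (dox) is present. They were grown in medium without phenol red and with charcoal-stripped serum and treated for 48 h in 4 groups. Dox plus E2 (500 ng/ml doxycycline and 10 nM E2, the labels' term for oestradiol) has 2 arrays, E2 alone (10 nM) has 3, dox alone (500 ng/ml) has 2 and vehicle has 2. Dox was never given to cells without the virus, so an effect of the drug and an effect of RUNX2 cannot be told apart. All arrays with E2 came from slide 2 and all others from slide 1, so slide and E2 cannot be told apart, whereas each comparison of dox with no dox stays within a slide. Within the slides, vehicle lay at positions A and B and dox at E and F, and E2 lay at A to C and dox plus E2 at F and G. Position on the slide and dox therefore cannot be told apart. The labels do not say whether replicates came from separate cultures. The p-values therefore cover the spread among these samples only, and that spread may be technical.

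Mitochondria keep a small genome whose messages, for core subunits of the respiratory chain and the ATP synthase, are translated only on the mitochondrial ribosome. Every protein of that ribosome is encoded in the nucleus, made in the cytosol and imported, and is joined in the mitochondrion to ribosomal RNA transcribed there. The mitochondrial ribosome resembles the bacterial one, and tetracyclines, doxycycline among them, bind its small subunit and block translation, so its genes are those of a target of the drug used here as a switch. The transcripts of the mitochondrial genome itself were not analysed here. Nor were Mrpl41, Mrpl44 and Mrps36.

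On each array 11554 to 12206 of 25697 probes were above background (detection p under 0.05). The median probe signal before normalisation was 163 and 164 in dox plus E2 and 172, 165 and 158 in E2. It was 132 and 132 in dox and 150 and 140 in vehicle. Every slide 2 array was thus brighter than every slide 1 array, and on slide 1 both dox arrays were dimmer than both vehicle arrays. Of the 10 osteoblast markers chosen, 9 were on the array and 6 were above background on at least 2 arrays, with Col1a1 (type I collagen) at 14.80 to 15.12 on the log2 scale; Runx2, Ibsp and Dlx5 were not, and whether the Runx2 probe reads the virus-borne RUNX2 was not tested. Markers of other cell types were present in part. Of 10 macrophage and osteoclast markers, 4 were tested (Acp5, Cd14, Ctsk and Lyz2), with a summed signal of 4020 to 4446 in dox plus E2, 3550 to 3876 in E2, 3694 to 3843 in dox and 3577 to 4096 in vehicle, while Ptprc, Csf1r, Adgre1, Itgam, Cd68 and Tyrobp were not above background. Of 6 chondrocyte markers 4 were tested, with sums of 21890 to 24720 in dox plus E2, 24010 to 27440 in E2, 26390 to 27290 in dox and 25980 to 26190 in vehicle, and Col10a1 and Matn1 were not above background. Of the endothelial markers 2 of 5 were tested (Cdh5, Emcn and Pecam1 were not above background), and of the adipocyte markers 1 of 6 (Adipoq, Fabp4, Lep, Plin1 and Cfd were not). The part of such cells in the members' values was not tested. In a bulk sample, fewer cells of a type and less RNA per cell cannot be told apart.

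Most members were well expressed. Of the 105 probes, 85 were above background on all 9 arrays and 14 on none. After probes above background on fewer than 2 arrays were set aside, 89 probes remained for 66 genes, 39 of the large and 27 of the small subunit, each represented by its brightest probe. The 6 genes not tested, Mrpl19, Mrpl21, Mrpl32, Mrpl39, Mrpl45 and Mrps14, were below background on all 9 arrays. Of the 66 tested, 65 were above background on every array. The exception was Mrpl15, a large-subunit protein with a bacterial counterpart, whose probe was above background on all 3 E2 arrays, both dox arrays and both vehicle arrays but on neither dox plus E2 array. Its normalised log2 signals were 5.50 and 5.55 in dox plus E2 and 5.85, 6.09 and 5.93 in E2. They were 5.99 and 5.86 in dox and 5.84 and 6.03 in vehicle. Dox plus E2 differed from E2 by -0.43, with a 95% interval of -0.90 to 0.05. It differed from dox by -0.39, with an interval of -0.91 to 0.13. Both intervals include no difference. Neither difference passed the test (limma adjusted p of 0.846 and 0.611).

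The brightest probes were those of Mrpl33, Mrps24, Mrpl23, Mrpl17 and Mrps33 and the dimmest those of Mrpl15, Mrpl35, Mrpl51, Mrps15 and Mrps5. Probes bind with different strength, so this order is of signals and not of transcript amounts. The members varied slightly more among replicates of a group than genes of similar brightness. Their median within-group standard deviation was 0.101 on the log2 scale, against 0.0936 for the 1659 genes between the quartiles of the members' brightness.

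The promoters of 3 members are shown here because the results turn on them: Mrpl33 and Mrpl53 are the members that passed the test in a comparison, and Mrps18c had the largest positive difference with dox. Each runs from 250 bases before to 50 bases after the RefSeq transcription start on GRCm38.p6, 5′ to 3′ on the gene's strand. Capitals mark CCGGAAG, the core bound by ETS factors such as GABPA (NRF-2), a known regulator of nuclear genes for mitochondrial proteins, and TGTGGT, the core bound by RUNX factors, on either strand. Mrpl33 lies at chr5:31613701-31614000 on the plus strand, Mrpl53 at chr6:83108858-83109157 on the plus strand, and Mrps18c at chr5:100798509-100798808 on the plus strand.
Mrpl33: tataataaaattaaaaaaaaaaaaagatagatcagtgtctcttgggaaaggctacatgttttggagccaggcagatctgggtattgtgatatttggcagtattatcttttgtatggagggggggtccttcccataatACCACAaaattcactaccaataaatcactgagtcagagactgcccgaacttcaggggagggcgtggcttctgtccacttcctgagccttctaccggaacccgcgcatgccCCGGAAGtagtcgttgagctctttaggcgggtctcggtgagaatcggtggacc
Mrpl53: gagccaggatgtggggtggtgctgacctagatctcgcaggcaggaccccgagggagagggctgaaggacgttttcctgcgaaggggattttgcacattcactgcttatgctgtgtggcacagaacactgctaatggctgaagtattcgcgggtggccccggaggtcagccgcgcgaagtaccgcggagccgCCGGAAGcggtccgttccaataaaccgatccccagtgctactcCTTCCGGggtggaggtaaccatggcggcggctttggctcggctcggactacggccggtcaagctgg
Mrps18c: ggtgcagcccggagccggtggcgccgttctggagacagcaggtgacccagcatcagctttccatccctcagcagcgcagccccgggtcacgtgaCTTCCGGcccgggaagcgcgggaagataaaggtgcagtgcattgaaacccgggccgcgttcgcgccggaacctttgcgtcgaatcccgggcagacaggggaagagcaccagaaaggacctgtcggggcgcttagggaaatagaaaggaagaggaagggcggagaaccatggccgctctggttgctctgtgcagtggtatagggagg

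In Mrpl33 one CCGGAAG begins 3 bases before the start and one TGTGGT, read on the opposite strand, 113 bases before it. Mrpl53 holds CCGGAAG at 59 and, on the opposite strand, at 16 bases before the start. Mrps18c holds it on the opposite strand at 156 bases before the start and has no TGTGGT. The windows of Mrpl30 and Mrps9, named below for dox plus E2 against E2 and not printed, held neither CCGGAAG nor TGTGGT. RefSeq windows were matched for 63 of the 72 genes, 69 windows in all, of which 24 (34.8%) held CCGGAAG on either strand, against 8.9% of all 32851 windows and 39.3% of the 56 windows of cytosolic ribosomal protein genes. AAGATGGC, the core bound by YY1, was in 11 (15.9%), against 2.7% of all windows. CGCATGCG, the centre of the site of NRF1, a form chosen after the counts of a longer one were seen, was in 7 (10.1%), against 1.9% of all. TGTGGT was in 9 (13.0%), against 16.8% of all windows. The members' windows had a median GC content of 58.7%, against 52.7% over all windows, and letters of GC-rich motifs occur more often in such windows. A match describes these letters and is not evidence that a factor binds.

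Dox, with or without E2, changed no mitochondrial ribosomal protein gene past the threshold (limma, Benjamini-Hochberg adjusted p under 0.05 over 9490 genes). With all 4 dox arrays set against all 5 arrays without dox and slide as a block, 0 of the 66 members passed, where 0.116% of all genes did. At an unadjusted p under 0.05 there were 3 of 66 (4.55%), against 5.85% of all genes. The differences were small and fairly well measured: the 95% interval of 60 members lay within 1.25-fold in either direction and that of 65 within 1.5-fold, against 91.1% of all genes within 1.5-fold. The exception was Mrpl15, with an interval of -0.59 to 0.11 that includes the arrays on which it was below background. Among the other members the difference ran from -0.17 to 0.25 on the log2 scale. The median standard error was 0.07 for the members and 0.10 for all genes.

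The median difference with dox over the members was 0.02, against -0.00 for all genes, with 45 of 66 above 0. With arrays centred on their medians and not quantile-normalised, the members' median was -0.01. The median of all genes also shifts in that run, as given below for dox against vehicle. The -0.01 therefore does not place the members relative to all genes. The large-subunit genes had a median of 0.02 and the small-subunit genes of 0.03. The subunits are taken from the names here, although the proteins of Mrps18a and Mrps30 are known from ribosome structures to lie in the large subunit.

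**Figure D1:**
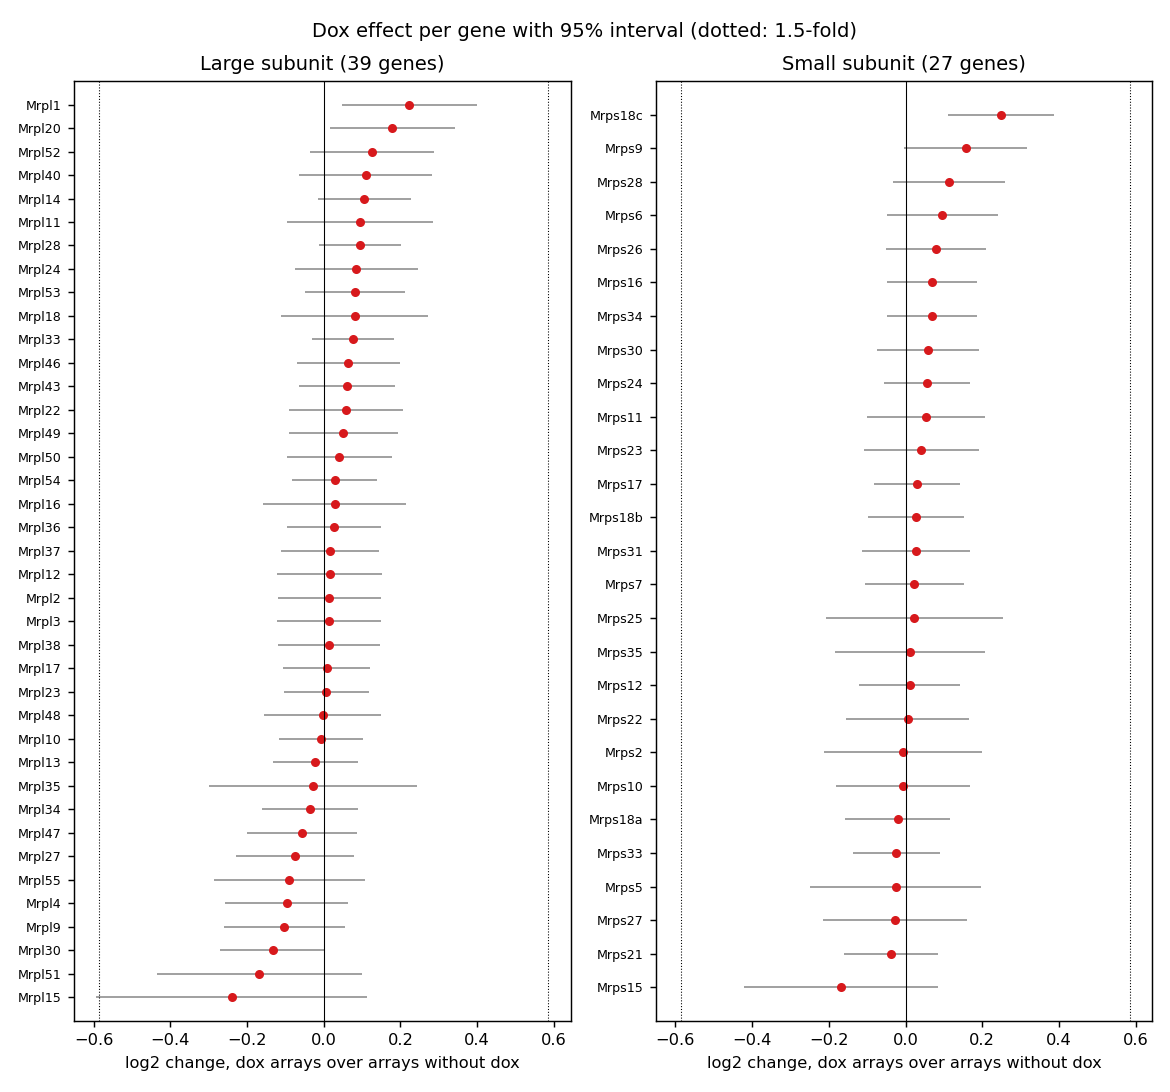
Difference of all 4 dox arrays from all 5 arrays without dox for each of the 66 tested mitochondrial ribosomal protein genes (x axis, log2, slide as a block), one gene per row, with the large subunit left and the small subunit right. Points are estimates and bars their 95% intervals; Mrps18c stands furthest to the right at 0.25 and Mrpl15 has the widest interval.

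Mrps18c, a small-subunit protein and one of 3 mammalian versions of the same bacterial protein, had the largest positive difference. Its log2 signals were 10.26 and 10.42 in dox plus E2, 10.10, 10.06 and 10.12 in E2, 10.19 and 10.04 in dox and 9.87 and 9.86 in vehicle. Both dox plus E2 arrays lay above all 3 E2 arrays, and both dox arrays above both vehicle arrays. The difference with dox was 0.25 ± 0.07 (SE), a 1.19-fold higher signal with a 95% interval of 0.11 to 0.39, at an unadjusted p of 0.00105 in the limma fit, and missed the threshold with an adjusted p of 0.334. It was 0.25 ± 0.10 without E2 and 0.25 ± 0.09 with E2. The other 2 versions, Mrps18a and Mrps18b, differed by -0.02 ± 0.07 and 0.03 ± 0.06.

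The next largest were Mrpl1, part of the stalk beside the site where tRNAs leave, at 0.22 ± 0.09, and Mrpl20, a protein with a bacterial counterpart in the large subunit, at 0.18 ± 0.08, with limma adjusted p of 0.748 and 0.836. The furthest below 0 among members above background on all arrays were Mrps15 and Mrpl51, both at -0.17, and Mrpl30 at -0.13 ± 0.07, none past the threshold. Of 6 members listed for their known roles, none passed the threshold. Mrps12, whose bacterial counterpart lies at the decoding centre of the small subunit, differed by 0.01 ± 0.06. Mrpl12, of the flexible stalk that recruits translation factors, differed by 0.02 ± 0.07. Mrps16 and Mrps22, mutated in severe human mitochondrial disease, differed by 0.07 ± 0.06 and 0.01 ± 0.08, Mrpl3, mutated in a human cardiomyopathy, by 0.01 ± 0.07, and Mrps5, whose knockdown lengthens life in Caenorhabditis elegans, by -0.03 ± 0.11.

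For 17 members more than 1 probe was kept, and in 9 of them the probes differed in sign with dox. The widest gap was in Mrpl13, with -0.02 on the brighter and 0.29 on the dimmer probe. The 4 probes of Mrpl49 ran from -0.10 to 0.05, and the probes of Mrps31, Mrpl10 and Mrps18b also lay on both sides of 0, each between -0.06 and 0.08.

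Dox alone against vehicle tests the drug and RUNX2 without E2, within slide 1. No member passed the threshold in the limma fit (0 of 66, against 0.0316% of all genes), and the lowest adjusted p of a member was 0.633. At an unadjusted p under 0.05 there were 5 of 66 members (7.58%) and 6.77% of all genes. The median difference was 0.06, against -0.01 for all genes, with 45 of 66 members above 0, but with arrays centred on their medians it was -0.02, with 29 of 66 above 0, where the median of all genes was -0.08. In 22 members both dox arrays lay above both vehicle arrays and in 0 below, against 16.9% and 21.2% of all genes (38.1% either way). The cytosolic ribosomal protein genes (52 tested) had a median of 0.05, with 38 above 0, and the nuclear genes of oxidative phosphorylation (79 tested) of 0.09, with 63 above 0. What part the level of these arrays as a whole has in this was not tested.

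The same shows in the level of the whole group on each array. Each member's log2 signal minus its own mean over the 9 arrays had a median of 0.05 and -0.01 on the dox plus E2 arrays, 0.04, 0.07 and 0.00 on the E2 arrays, 0.04 and -0.04 on the dox arrays and -0.07 and -0.07 on the vehicle arrays. Both vehicle arrays were the lowest, and the pooled standard deviation of this value between replicates was 0.0373. For the oxidative phosphorylation genes the vehicle arrays were lowest too, at -0.07 and -0.09, and for the cytosolic ribosomal proteins they stood at -0.04 and -0.04.

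**Figure D2:**
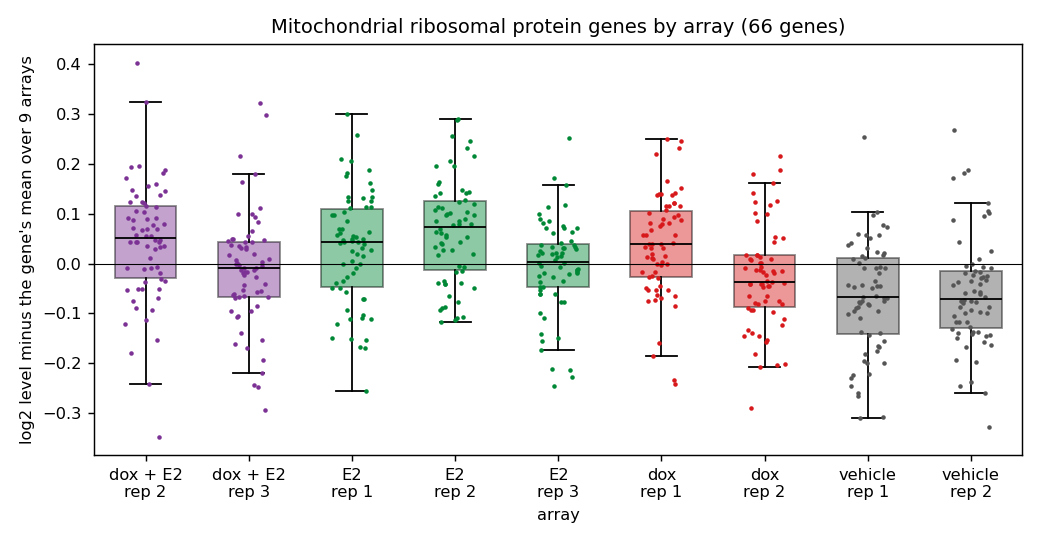
Level of the tested mitochondrial ribosomal protein genes on each of the 9 arrays (y axis, log2 signal minus each gene's mean over all arrays), with the groups in the order dox plus E2, E2, dox and vehicle. The medians of the 2 vehicle arrays are -0.07 and -0.07 and those of the other arrays lie between -0.04 and 0.07.

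The largest positive differences between dox and vehicle were those of Mrpl40 (0.30 ± 0.11), Mrps25 (0.27 ± 0.15), Mrps18c and Mrpl52 (0.23 ± 0.11), none past the threshold. Mrpl40, a large-subunit protein found only in mitochondrial ribosomes, had signals of 10.37 and 10.14 in dox and 9.84 and 10.07 in vehicle, and the groups did not overlap. Mrps25, also found only in mitochondrial ribosomes, had 7.92 and 7.91 in dox and 7.55 and 7.75 in vehicle, but 2 further probes of the gene gave 0.56 and 0.01, so its probes disagree on the size. The furthest below 0 was Mrpl9 at -0.15 ± 0.11, then Mrpl35, Mrps33 and Mrps5 at -0.08 to -0.06.

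Dox plus E2 against E2 asks the same with E2 present, within slide 2. Again 0 of 66 members passed (limma, 0.0738% of all genes), with a lowest adjusted p of 0.433 and 5 members at an unadjusted p under 0.05 (7.58%, against 6.23% of all genes). The median was -0.00, as for all genes (0.00), with 31 of 66 above 0. In 8 members both dox plus E2 arrays lay above all E2 arrays and in 7 below, against 10.7% and 10.1% of all genes (20.8% either way). Among members above background on every array, Mrpl30, a large-subunit protein with a bacterial counterpart, was the furthest below 0. Its signals were 11.35 and 11.21 in dox plus E2 and 11.54, 11.62 and 11.50 in E2, without overlap, a difference of -0.27 ± 0.08 with a limma adjusted p of 0.433. Mrps9, of the small subunit, was the furthest above 0, with 10.68 and 10.38 in dox plus E2 and 10.13, 10.31 and 10.32 in E2, a difference of 0.28 ± 0.10 (limma adjusted p 0.642). Mrpl1 and Mrpl20 stood at 0.26 ± 0.12 and 0.25 ± 0.11, and Mrps15, Mrpl51 and Mrpl55 at -0.27, -0.26 and -0.20.

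**Figure D3:**
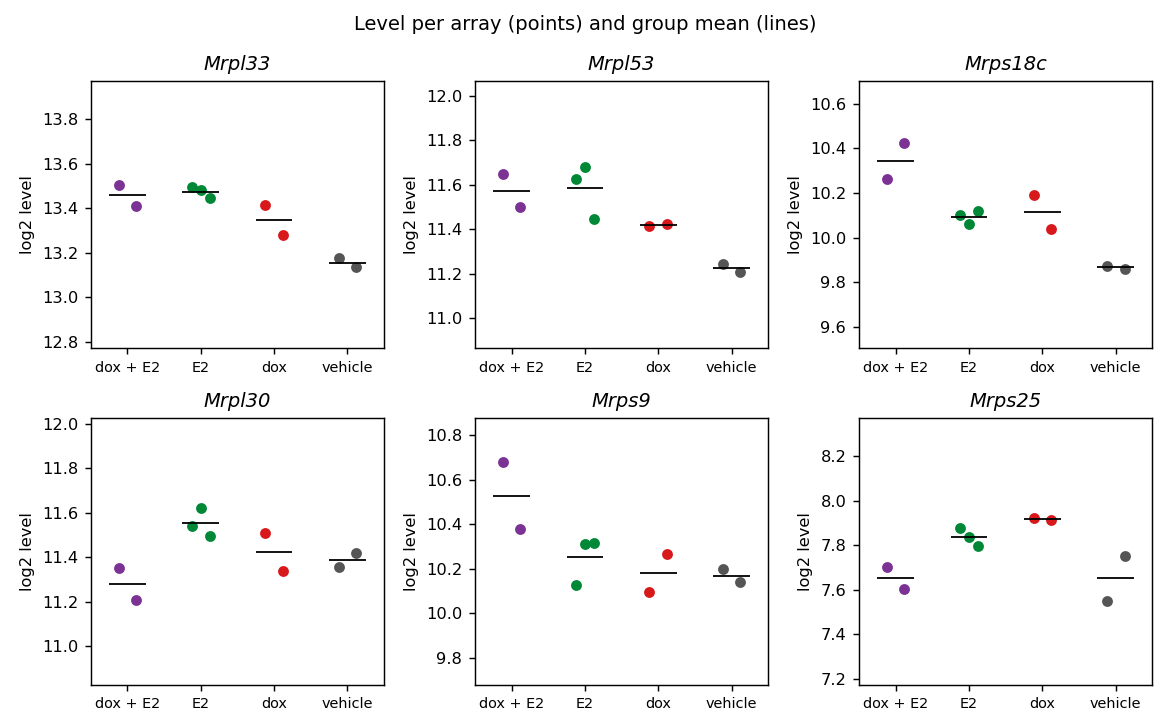
Normalised log2 signal (y axis) of selected members on every array, with dox plus E2, E2, dox and vehicle from left to right. Each point is 1 array; Mrpl33 and Mrpl53 are lowest on both vehicle arrays and Mrps18c is higher on the dox arrays of both slides.

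Whether the dox difference itself changed with E2 was tested as a difference of differences. In the limma fit 0 of 66 members passed (0% of all genes), and 4 reached an unadjusted p under 0.05 (6.06%, against 6.87% of all genes). The median of this contrast was -0.08, against 0.01 for all genes. It was -0.01 with arrays centred on their medians, and the median of all genes in that run is not given here. The extremes were Mrps25 at -0.45 ± 0.21, with an interval of -0.88 to -0.02 and an adjusted p of 0.698, and Mrps9 at 0.27 ± 0.15. The further kept probes of Mrps25 gave -0.58 and 0.37, so its probes disagree in sign here. Mrpl40, Mrpl16 and Mrps35 stood at -0.35 ± 0.15, -0.34 ± 0.17 and -0.33 ± 0.18, and Mrpl49 and Mrps17 at 0.16 ± 0.13 and 0.11 ± 0.11. The 2 dox comparisons share no array. The difference was above 0 in both for 19 members, below 0 in both for 9 and of opposite sign for 38. Over the 66 genes, which share the arrays and are not independent, the 2 differences had a Pearson r of 0.107 and a Spearman rho of 0.01, against 0.05 and 0.00 over all 9490 genes.

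**Figure D4:**
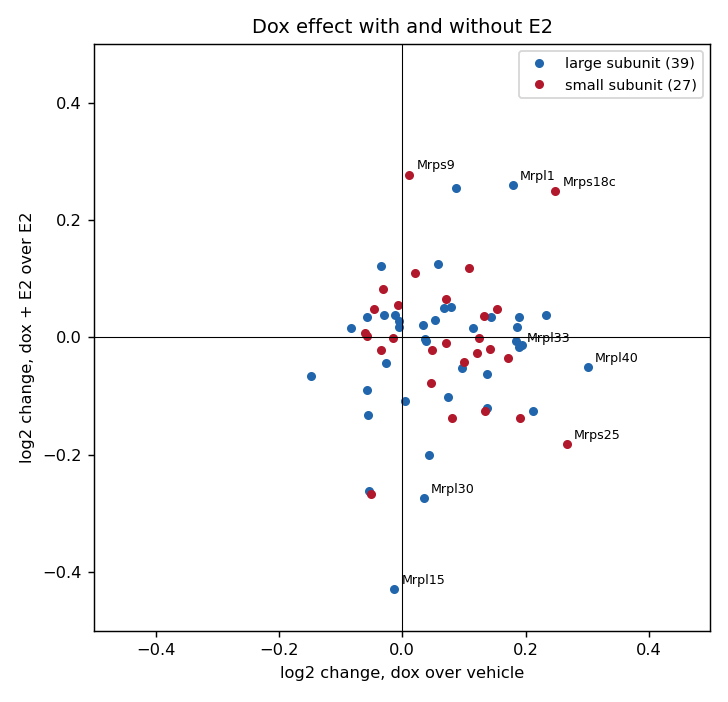
Difference with dox in the presence of E2 (y axis, dox plus E2 minus E2, log2) against the difference without E2 (x axis, dox minus vehicle, log2), one point per tested member, blue for the large and red for the small subunit. The 2 differences have opposite signs in 38 of 66 members, and Mrps18c stands at 0.25 on both axes.

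E2 against vehicle gave the only calls. Mrpl33 and Mrpl53, both of the large subunit, were higher in E2, 2 of 66 members, where 1.45% of all genes passed and 0.622% were higher, and 0 were lower (limma, adjusted p under 0.05). At an unadjusted p under 0.05 there were 15 of 66 members (22.7%), against 15.6% of all genes. The median difference was 0.10, against -0.02 for all genes, with 51 of 66 above 0; large-subunit genes had a median of 0.13 and small-subunit genes of 0.10. With arrays centred on their medians it was 0.16, with 60 of 66 above 0 and a median of all genes of 0.06. In 22 members all E2 arrays lay above both vehicle arrays and in 1 below, against 14.7% and 19.6% of all genes (34.3% either way). This comparison shares its vehicle arrays with the comparison of dox and vehicle, and its groups lie on different slides. These counts use the brightest probe of each gene, and probes of some members disagreed in sign. Mrpl3 gave -0.02 on its brightest and 0.43 on its dimmer probe. Mrpl49, the member that lay below, gave -0.16 on its brightest probe, and its 4 probes ran from -0.16 to 0.29.

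Mrpl33, one of the smallest proteins of the large subunit and conserved from bacteria (probe ILMN_2629835, chromosome 5), had log2 signals of 13.50, 13.48 and 13.45 in E2 and 13.18 and 13.13 in vehicle. Every E2 array lay above both vehicle arrays, and the arrays with dox lay at 13.51 and 13.41 in dox plus E2 and 13.41 and 13.28 in dox. It rose by 0.32 ± 0.06 in E2, 1.25-fold, with a limma adjusted p of 0.0104, and a dimmer second probe gave 0.28. Mrpl53, a large-subunit protein found only in mitochondrial ribosomes (probe ILMN_2767187, chromosome 6), had 11.63, 11.68 and 11.45 in E2 and 11.24 and 11.21 in vehicle, again without overlap. It stood at 11.65 and 11.50 in dox plus E2 and at 11.41 and 11.43 in dox. It rose by 0.36 ± 0.08 in E2, 1.28-fold, with a limma adjusted p of 0.0241.

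The size of both differences held when each array was left out, at 0.30 to 0.34 for Mrpl33 and 0.31 to 0.43 for Mrpl53, but the calls did not. Leaving out a vehicle array leaves 1 in that group, which is then assumed to vary like the other groups. Without vehicle replicate 1 the limma adjusted p of Mrpl33 and Mrpl53 were 0.131 and 0.184, without vehicle replicate 2 they were 0.228 and 0.268, and without an intensity trend in the variance they were 0.217 and 0.227. Mrpl53 also lost its call without E2 replicate 1 (0.0706) or replicate 2 (0.114). Mrps21 and Mrpl54, named because they follow by p and chosen after their values were seen, stood at 0.26 and 0.22 with limma adjusted p of 0.0725 and 0.0957.

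Muscle genes moved with E2 in the same comparison. Of 8 tested muscle markers 5 were lower in E2 than in vehicle, where 79 of 9490 genes were. Of the 8, 1 lay above 0, at 0.39. The summed signal of the list was 653 to 894 in E2 and 2091 to 2429 in vehicle. Ckm, Myh7 and Tnni3 were not above background. In the nuclear oxidative phosphorylation list, 3 of 79 genes rose and 2 fell, where 59 of all 9490 genes rose and 79 fell. Those that rose were Atp5l, of the ATP synthase (0.36, adjusted p 0.00695), Ndufb7, of complex I (0.51, adjusted p 0.0147), and Uqcrh, of complex III (0.32, adjusted p 0.0112). Those that fell, Cox6a2 (-0.57, adjusted p 0.00695) and Cox8b (-1.25, adjusted p 0.00959), are the heart and skeletal muscle forms of cytochrome c oxidase subunits; these p-values are from the limma fit. The part of the muscle genes' change in the members' values was not tested.

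Dox plus E2 against dox is the E2 comparison in cells treated with dox. No member passed (0 of 66 in limma, 0.232% of all genes, lowest adjusted p 0.213), and 3 reached an unadjusted p under 0.05 (4.55%, against 10.8% of all genes). The median was 0.02, against -0.00 for all genes, with 40 of 66 above 0; with arrays centred on their medians it was 0.16, with 59 of 66 above 0, where the median of all genes moved to 0.12. In 10 members both dox plus E2 arrays lay above both dox arrays and in 9 below, against 19.3% and 20.4% of all genes (39.7% either way). Mrpl33 and Mrpl53 stood at 0.11 ± 0.07 and 0.15 ± 0.09, with limma adjusted p of 0.606 and 0.554. The largest positive differences were those of Mrps9 at 0.35 ± 0.11 (10.68 and 10.38 in dox plus E2, 10.09 and 10.27 in dox), Mrpl17 and Mrps18c at 0.23 each and Mrpl20 at 0.18. Mrps9 and Mrpl17 passed with arrays centred on their medians, at 0.48 and 0.38, with limma adjusted p of 0.0211 and 0.0212. The share of all genes that passed in that run was not computed. The largest negative among members above background on every array were Mrps25 at -0.27 ± 0.15, Mrps2 at -0.24 ± 0.14, Mrpl51 at -0.23 and Mrpl35 at -0.15. The further kept probes of Mrps25 gave -0.26 and 0.22, so they disagree in sign. Those of Mrpl51, above background on 5 and 4 arrays, gave 0.17 and -0.03, so its probes disagree in sign too. Of the 8 muscle markers 6 were lower, where 20 of 9490 genes were. The summed signal of the 8 was 500 to 568 in dox plus E2 and 2181 to 3183 in dox.

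The genes that work with the mitochondrial ribosome gave no call with dox either. In all dox arrays against all arrays without dox, 0 passed the limma test of 6 mitochondrial ribosomal proteins with other names, 9 translation factors, 18 aminoacyl-tRNA synthetases and their partners, 17 genes of mitochondrial transcription and ribosome assembly, 19 genes of the mitochondrial and integrated stress responses, 6 regulators of mitochondrial biogenesis, 79 oxidative phosphorylation genes and 52 cytosolic ribosomal proteins. At an unadjusted p under 0.05 there were 10 of the oxidative phosphorylation genes (12.7%) and 1 stress gene, 0 of the others, against 5.85% of all genes. The median was 0.05 for oxidative phosphorylation, with 60 of 79 above 0, 0.03 for assembly, 0.02 for the stress genes, 0.02 for the synthetases, 0.01 for the ribosomal proteins of other names, 0.01 for the cytosolic ribosome, -0.01 for the translation factors and -0.02 for the regulators.

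The lists ranged more widely than the 8 single genes named next. Differences ran from -0.25 to 0.39 for oxidative phosphorylation, -0.29 to 0.16 for the regulators and -0.21 to 0.21 for the synthetases. They ran from -0.07 to 0.21 for the stress genes and for assembly. The 8 genes showed small differences, none past the threshold. Dap3, a small-subunit protein that binds GTP, differed by 0.02 ± 0.05 with dox, and Tufm, the elongation factor that delivers tRNAs, by -0.02 ± 0.05. Tfam, which packages the mitochondrial genome and takes part in its transcription, differed by 0.01 ± 0.09 and Polrmt, the RNA polymerase of that genome, by 0.03 ± 0.09. Atf4, the transcription factor of the integrated stress response, differed by 0.05 ± 0.06, its targets Asns and Trib3 by 0.02 ± 0.05 and -0.04 ± 0.06, and the mitochondrial chaperone Hspd1 by 0.05 ± 0.07. These 8 genes were chosen after their values were seen, for their known roles. In the same comparison 3 of the 6 tested osteoblast markers, Alpl, Bglap2 and Sp7, rose by 0.85, 1.39 and 0.68, where 0.105% of all genes rose past the threshold. Of the 6 markers 5 lay above 0, and the lowest stood at -0.13. The summed signal of the 6 was 71730 to 74070 in dox plus E2 and 73310 to 74940 in E2. It was 75220 to 78880 in dox and 79370 to 81110 in vehicle, so it was not higher with dox.

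**Figure D5:**
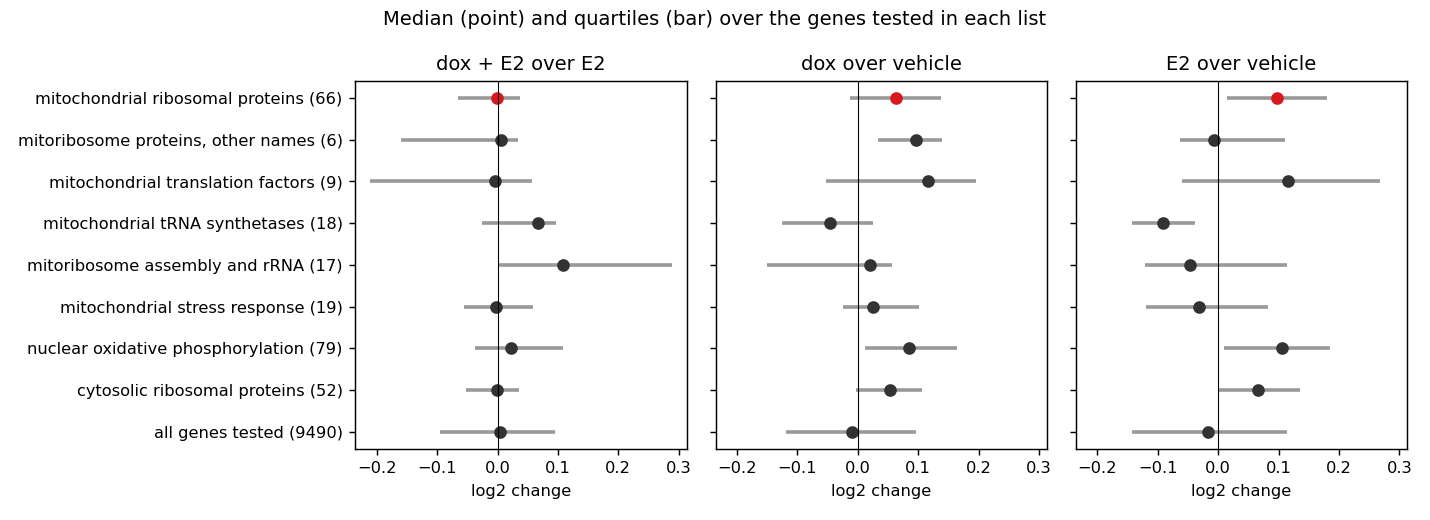
Median (point) and quartiles (bar) of the log2 difference over the tested genes of each list, for dox plus E2 against E2, dox against vehicle and E2 against vehicle from left to right, with the number of genes in brackets. The members' medians are -0.00, 0.06 and 0.10, beside 0.00, -0.01 and -0.02 for all genes in the bottom row.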

How the data were processed

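Total RNA was labelled as biotinylated cRNA and hybridised to mouse bead arrays from Illumina, per the protocols in the labels. The deposited table of 25697 probes holds 2 columns per array, per the file headers: the mean signal of the beads, which is a linear intensity with no correction or normalisation, and the p-value of detection. The submitters' processing notes name GenomeStudio 2011.1; the authors' second deposited intensity table equals quantile normalisation of the first to within 0.515%. Samples were grouped by their titles.

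Intensities were background-corrected from the detection p-values and quantile-normalised with an offset of 16 (neqc, limma 3.58.1, R 4.3.3), which shrinks differences of dim probes. The fit used the 12912 probes detected (p under 0.05) on 2 or more arrays, and the brightest stood for each of 9490 genes. Old symbols were updated with RefSeq (GRCm38.p6): 20733 probes had a current symbol, 3872 a synonym and 1092 kept their own. One limma fit held a mean per group for all 9 arrays, with an intensity trend in the variance. All dox arrays were set against all arrays without dox in a fit with slide as a block. Adjusted p are Benjamini-Hochberg over 9490 genes in each of 6 comparisons, two-sided. The steps were tested on simulated data. The number of arrays limits the precision.

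The members and the other gene lists were chosen with earlier results of these data known. Named are the 5 brightest and dimmest members, the Mrps18 genes, 6 members with known roles (Mrpl12, Mrps12, Mrps5, Mrps22, Mrps16, Mrpl3), those past the threshold or else the 4 largest each way per comparison among members above background on all 9 arrays, 5 whose probes differ in sign, and up to 4 called genes per other list. The oxidative phosphorylation and cytosolic ribosome lists were taken by the start of the symbol, and the first also holds assembly factors. Alternatives were other normalisations, filters, symbol and probe rules, fits and leaving out each array.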

Additional observations from a re-analysis of the deposited data

How the results depend on the processing

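No comparison of dox with no dox gave a called member under any alternative run, and the cause of the following changes was not tested. With arrays centred on their medians and no quantile step, the median member difference was -0.023 for dox against vehicle, -0.013 for all dox arrays, -0.010 for the difference of the dox effects, 0.16 for E2 against vehicle and 0.16 for dox plus E2 against dox, with 4 and 2 members called in the last 2 comparisons. The share of all genes called in that run was not computed, so these counts cannot be set against it. These medians are not relative to all genes, whose median also moved in that run, as given above for some of the comparisons. Without an intensity trend 0 members were called in E2 against vehicle. Leaving out each array in turn gave 0 to 2 calls there, and medians of 0.024 to 0.075 for dox against vehicle, lowest without dox replicate 1, and of -0.040 to 0.031 for dox plus E2 against E2, lowest without dox plus E2 replicate 2. Arrays compared by replicate number had correlations of deviations from -0.113 to 0.0251. In groups of 2 arrays these deviations mirror each other, so the values cannot show whether the samples were paired. With the replicate block the calls were as before, 2 in E2 against vehicle and 0 elsewhere, and the median of dox plus E2 against dox was 0.068. Signal over background limits what is known of Mrpl15 and of the 6 members not tested.

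Differences near 0 that no fit called changed sign. With median centring and all dox arrays these were Mrpl17 (-0.014), Mrps18b (-0.00229), Mrpl12 (-0.014), Mrps12 (-0.018), Mrps22 (-0.055), Mrpl3 (-0.035), Mrpl49 (-0.0067), Mrps31 (-0.027). When probes of a gene were averaged they were Mrps18b (-0.014), Mrpl3 (-0.024), Mrpl13 (0.13), Mrpl49 (-0.00526), Mrpl10 (0.036) and, for dox against vehicle, Mrps33 (0.019). Mrpl10 was 0.0033 with the replicate block and Mrpl17 -0.012 without a slide term. Leaving out each array gave, for all dox arrays, Mrps33 -0.065 to 0.015, Mrpl12 -0.028 to 0.066, Mrps12 -0.042 to 0.049, Mrpl10 -0.028 to 0.014, Mrpl17 -0.024 to 0.052, Mrpl35 -0.073 to 0.022, Mrps22 -0.052 to 0.037, Mrpl3 -0.018 to 0.056, Mrpl23 -0.020 to 0.035, Mrps31 -0.0079 to 0.068, Mrps5 -0.098 to 0.035, Mrpl13 -0.048 to 0.0010, Mrps18a -0.051 to 0.039. For dox against vehicle it gave Mrps33 -0.15 to 0.029 and Mrpl35 -0.20 to 0.032.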

Other observations

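In the comparison of dox plus E2 with dox, 2 of the 79 nuclear oxidative phosphorylation genes fell, where 20 of 9490 genes did. Both are muscle forms of cytochrome c oxidase subunits. Cox7a1 had log2 signals of 6.35 and 6.08 in dox plus E2 and 7.87 and 7.76 in dox, a difference of -1.60 with a limma adjusted p of 4.21e-05. Cox8b was above background on neither dox plus E2 array and on both dox arrays.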
